A study of Homo sapiens with 8 samples.

Results

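The 9 genes described here encode adhesion proteins of the synapse: the neurexins NRXN2 and NRXN3, the neuroligins NLGN1, NLGN2 and NLGN3, the leucine-rich repeat protein LRRTM2, and the calsyntenins CLSTN1, CLSTN2 and CLSTN3. They were taken by symbol from the 18377 genes that the array annotation names singly, and each of the 9 was measured by exactly 1 row of the value table. The cells were SHSY5Y, an established human neuroblastoma line that takes on neuronal features when it is differentiated, kept as 2 stable derivatives under puromycin selection. One derivative carries an shRNA against IKBKAP, the gene of the Elongator subunit IKAP/hELP1, and the other carries the pLKO.1-Puro control vector. Both were grown on laminin, either undifferentiated in medium with serum (NDF) or after differentiation (DF), in which 5 days of 10 µM retinoic acid were followed by 3 days of 2 nM BDNF without serum. RNA of each line and condition was hybridized to 2 arrays, 8 arrays in all. The sources describe the duplicates as biological and give no further detail on the cultures, so p values measure the spread between these arrays. Each derivative is a single stable line, and a difference between shRNA and vector cannot be told apart from any other difference between these 2 lines.

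The sample titles name the lines V71 and PLKO, while the treatment field marks V71 as control and PLKO as shRNA. The methods point the other way, since pLKO.1-Puro is there the control vector, and the study's tables of differences between its lines run in the direction of V71 minus PLKO, with V71 as the down-regulated line, for all entries compared in NDF and for most in DF. The gene targeted by the shRNA was not analysed here and so did not check the labels directly. The lines keep the names of the titles here, and each difference between them is V71 minus PLKO. Values are log2 RMA values, which are comparable between arrays for 1 gene but not between genes. A gene was called when limma gave an adjusted p under 0.05 and the fold change was at least 1.5, which is 0.585 on the log2 scale. The same 8 arrays serve all comparisons, so the changes upon differentiation and the differences between the lines share their samples.

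Of 12 noradrenergic neuroblast markers analysed, 11 lay above the array median on all 8 arrays, and TH, the rate-limiting enzyme of catecholamine synthesis, did not. None of 6 Schwann cell and glia markers did so. CDH19 was below the lower quartile on all arrays, and limma called 0 of the 6 in any of the 5 comparisons (0 to 1 at an unadjusted p under 0.05). Of the noradrenergic markers, CHGA and CHGB were called higher and ELAVL4 lower in V71 in NDF, and CHGB higher and DBH lower in DF. Upon differentiation CHGB was called higher and DDC lower in both lines. In V71 alone, ELAVL4 was called higher and DBH and GATA3 lower. The interaction was called for CHGA, in the lower direction. Of 12 markers of the mesenchymal, substrate-adherent (S-type) neuroblastoma cell, 4 lay above the array median on all arrays. The log2 of the summed linear level of these S-type markers was 9.52 on both PLKO NDF arrays, 9.22 on both V71 NDF arrays, 9.15 to 9.20 in PLKO DF and 9.17 to 9.26 in V71 DF. The 3 called S-type markers were VIM, FN1 and SNAI2. In NDF they were lower in the V71 line, and they fell upon differentiation of PLKO.

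Neurexins are presynaptic membrane proteins that reach across the cleft to several kinds of ligand. Neuroligins and LRRTM2 are postsynaptic ligands of neurexins: NLGN1 is found mainly at excitatory synapses, NLGN2 at inhibitory synapses, NLGN3 at both, and LRRTM2 at excitatory synapses. Calsyntenins carry cadherin repeats outside the cell and bind kinesin light chain inside it. Calsyntenin-3 has been described as a synapse organizer that interacts with neurexins.

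Promoter sequence is shown for the genes whose calls carry the results: NRXN3, CLSTN1 and CLSTN2, which rose upon differentiation, and LRRTM2, which differed between the lines. The CLSTN3 window lies inside the gene's span and is not shown. Each window holds the 250 bases before an annotated RefSeq start in GRCh38.p14, and 8 of the 9 genes have 12 such windows between them. NRXN2 has none in the table used. Windows were searched on both strands for AGGTCA, the half-site of retinoic acid receptors, and for the palindrome TGACGTCA, the cyclic AMP response element bound by CREB. Neither motif overlaps the other in the windows printed, and capitals mark a match.
CLSTN1, chr1:9824527-9824776, minus strand: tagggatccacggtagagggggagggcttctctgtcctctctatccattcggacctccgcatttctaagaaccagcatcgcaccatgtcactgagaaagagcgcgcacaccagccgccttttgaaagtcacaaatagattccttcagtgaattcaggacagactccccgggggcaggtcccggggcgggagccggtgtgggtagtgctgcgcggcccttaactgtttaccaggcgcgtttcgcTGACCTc
CLSTN2, chr3:139934935-139935184, plus strand: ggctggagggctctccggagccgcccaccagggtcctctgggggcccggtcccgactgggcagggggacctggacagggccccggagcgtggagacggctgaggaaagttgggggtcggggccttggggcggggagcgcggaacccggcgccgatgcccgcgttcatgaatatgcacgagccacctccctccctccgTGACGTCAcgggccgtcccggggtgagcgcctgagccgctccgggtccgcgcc
NRXN3, chr14:78170123-78170372, plus strand: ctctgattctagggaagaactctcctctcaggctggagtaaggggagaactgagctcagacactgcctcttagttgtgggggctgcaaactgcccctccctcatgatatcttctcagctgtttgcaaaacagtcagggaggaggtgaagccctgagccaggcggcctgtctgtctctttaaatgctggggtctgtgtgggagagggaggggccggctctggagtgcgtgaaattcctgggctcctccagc
LRRTM2, 30 bases within chr5:138875336-138875585, minus strand: acgtcatccggTGACGTCAgcctatataca
AGGTCA was found in 1 of the 12 windows, on the opposite strand of CLSTN1, 7 to 2 bases before the start. It occurs in 12.1% of all 35116 windows of this length. TGACGTCA was found in 2 of the 12 windows, 53 to 46 bases before the start of CLSTN2 and 51 to 44 bases before that of LRRTM2. It occurs in 1.65% of all windows. The printed NRXN3 window holds neither motif, nor do the other windows of NRXN3, which has 3 in all. These matches describe letters in a window and not binding.

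**Figure D1:**
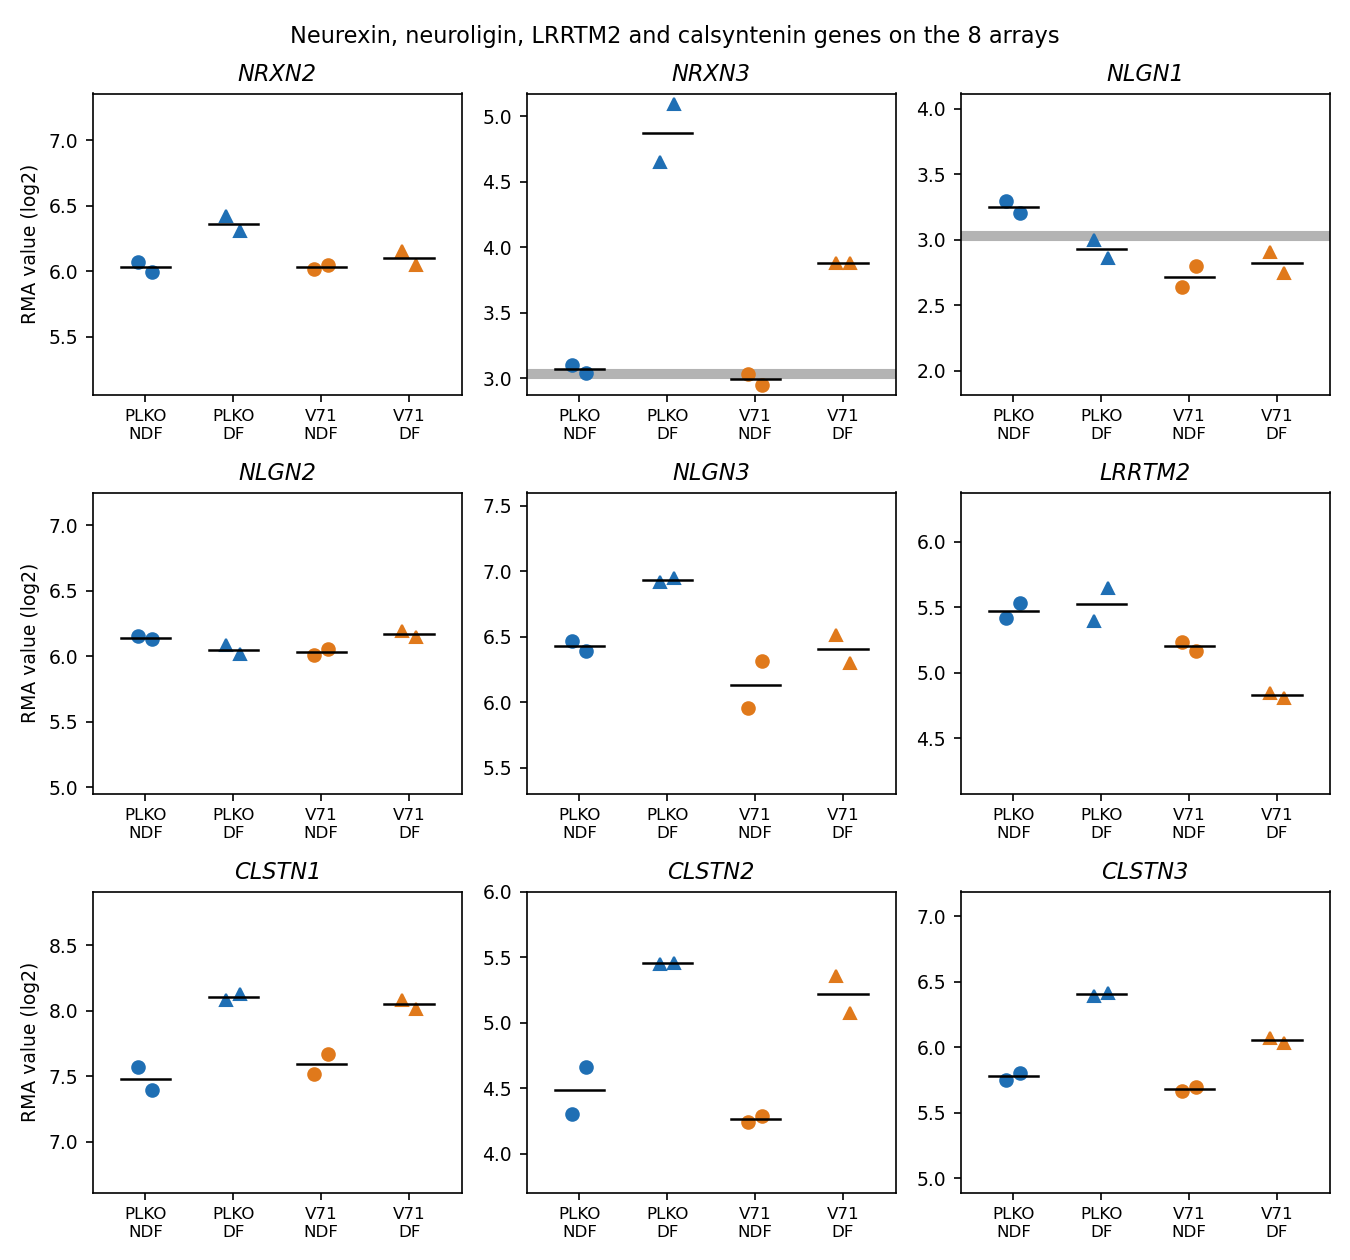
Log2 RMA value of each of the 9 genes on the 8 arrays, by line and condition. Circles are NDF and triangles DF arrays, blue PLKO and orange V71, black bars are the means of 2 arrays, and each panel spans the same number of log2 units. The grey band is the range of the arrays' lower quartiles (3.002 to 3.06), and NRXN3 lies near it in NDF and above it in DF, at 4.65 and 5.10 in PLKO and 3.88 on both V71 arrays.

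NRXN3 (probe set 7976012, chr14:78170373-79868291) had the largest change of the 9 genes. In NDF its values were 3.10 and 3.04 in PLKO and 3.03 and 2.95 in V71, near the lower quartile of the arrays, and both V71 values were below it. In DF they were 4.65 and 5.10 in PLKO and 3.88 and 3.88 in V71. All 4 DF arrays thus lay above all 4 NDF arrays, and in DF both V71 arrays lay below both PLKO arrays. NRXN3 rose upon differentiation of PLKO, a log2 change of 1.81 (95% interval 1.51 to 2.10, limma adjusted p = 1.71e-05). It rose in V71 by 0.89 (0.59 to 1.18, limma adjusted p = 0.00163). With the lower quartile of each array taken as a floor for the NDF values, the estimated rise was 3.50-fold in PLKO and 1.804-fold in V71. In PLKO both NDF values lay above the floor, so the estimate there is the one without it. No interval was computed with the floor. In DF it was 1.99-fold lower in V71 than in PLKO, at -0.99 (-1.29 to -0.70, limma adjusted p = 0.00242). In NDF the difference was -0.07 (-0.37 to 0.22, limma adjusted p = 0.894). In RNA of whole cultures, fewer cells that express a gene and less RNA per cell cannot be told apart.

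The difference between these changes in the 2 lines was tested as an interaction. The fit pools the spread over groups, so a group left with 1 array is assumed to vary like the others. For NRXN3 it was -0.92 (-1.33 to -0.50), with a limma adjusted p of 0.0617, which does not pass. It passed without PLKO DF replicate 1, at -1.14 (limma adjusted p = 0.00904), and was -0.70 without PLKO DF replicate 2, which did not pass. Over the 19 alternatives run for it the limma adjusted p ranged from 0.00904 to 0.434. The PLKO DF arrays differed by more than those of any other group for this gene, with an SD of 0.32 against 0.0049 to 0.060 elsewhere.

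NRXN2 (probe set 7949080, chr11:64606174-64723197) read 6.07 and 5.99 in PLKO NDF and 6.02 and 6.05 in V71 NDF. In DF it read 6.42 and 6.31 in PLKO and 6.16 and 6.05 in V71. The PLKO DF arrays were the highest, and the other 6 lay between 5.99 and 6.16. Its change upon differentiation of PLKO was 0.33 (0.14 to 0.53, limma adjusted p = 0.0346), under the 1.5-fold threshold, and in V71 it was 0.07 (-0.12 to 0.27, limma adjusted p = 0.703). In DF the difference between the lines was -0.26 (-0.46 to -0.06, limma adjusted p = 0.151), which does not pass.

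Of the neuroligins, NLGN3 had the largest difference between the lines in DF. NLGN3 (probe set 8168264, chrX:71144841-71175307) read 6.47 and 6.39 in PLKO NDF, 5.95 and 6.31 in V71 NDF, 6.92 and 6.95 in PLKO DF and 6.51 and 6.30 in V71 DF. Both PLKO DF arrays lay above the other 6 arrays, while the V71 DF arrays overlapped both NDF groups. Its change upon differentiation of PLKO, 0.50 (0.22 to 0.79, limma adjusted p = 0.0268), and its difference between the lines in DF, -0.53 (-0.81 to -0.25, limma adjusted p = 0.0422), passed on p and stayed under 1.5-fold. Upon differentiation of V71 the difference was 0.27 (-0.01 to 0.55, limma adjusted p = 0.223).

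NLGN1 (probe set 8083968, chr3:173395952-174294372) was above the lower quartile of the arrays in PLKO NDF alone, at 3.30 and 3.21. The V71 NDF values were 2.64 and 2.80, the PLKO DF values 3.002 and 2.86, and the V71 DF values 2.90 and 2.75, and all 6 were below the lower quartile of their arrays. The NDF difference between the lines was -0.53 (-0.76 to -0.31, limma adjusted p = 0.0231) as fitted and was not called, its fitted fold being under 1.5. With the lower quartile of each array as a floor for V71, NLGN1 was an estimated 1.17-fold lower there, without an interval. Without V71 NDF replicate 3 it was -0.61 (limma adjusted p = 0.0481) and passed both thresholds, on a single V71 NDF array that is assumed to vary like the arrays of the other groups. Its change upon differentiation was -0.32 in PLKO (-0.54 to -0.09, limma adjusted p = 0.071) and 0.11 in V71 (-0.12 to 0.33, limma adjusted p = 0.613). The summed level of the S-type markers above was also highest in PLKO NDF. So were the means of VIM, FN1, CD44, SNAI2, TWIST1, COL1A1 and COL1A2, while those of PRRX1, LGALS1, ANXA1, TGFBI and S100A6 were not. The part of the S-type markers in the NLGN1 values was not tested.

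NLGN2 (probe set 8004385, chr17:7404653-7419860) was the steadiest neuroligin, with all 8 values between 6.01 and 6.19. It read 6.15 and 6.13 in PLKO NDF, 6.01 and 6.05 in V71 NDF, 6.08 and 6.01 in PLKO DF and 6.19 and 6.15 in V71 DF. No comparison of NLGN2 passed. Upon differentiation the difference was -0.09 in PLKO (-0.27 to 0.09, limma adjusted p = 0.585) and 0.14 in V71 (-0.04 to 0.32, limma adjusted p = 0.35), and these intervals leave out a 1.5-fold change in either line.

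LRRTM2 (probe set 8114470, chr5:138868921-138875335) read lower on the V71 arrays in both conditions, and the difference was called in DF alone. Both V71 arrays lay below both PLKO arrays for 21.5% of all genes in NDF and for 21.1% in DF. PLKO read 5.42 and 5.53 in NDF and 5.40 and 5.65 in DF, so its conditions overlapped. V71 read 5.24 and 5.17 in NDF and 4.85 and 4.81 in DF, with all 4 arrays below the 4 PLKO arrays. In DF LRRTM2 was 1.62-fold lower in V71, at -0.70 (-0.92 to -0.47, limma adjusted p = 0.00425). Without PLKO DF replicate 2 the difference was -0.57 (limma adjusted p = 0.0248), short of 1.5-fold. In NDF it was -0.27 (-0.50 to -0.04, limma adjusted p = 0.277). Upon differentiation the difference was 0.05 in PLKO (-0.18 to 0.28, limma adjusted p = 0.864) and -0.37 in V71 (-0.60 to -0.15, limma adjusted p = 0.0394, under 1.5-fold). The interaction, -0.42 (-0.75 to -0.10, limma adjusted p = 0.345), did not pass. LRRTM2 lies within the span of CTNNA1 (alpha-catenin, chr5:138753425-138935034). In DF, CTNNA1 stood at 0.32 in V71 minus PLKO (limma adjusted p = 0.135). Upon differentiation of V71 it stood at 0.44 (limma adjusted p = 0.0208), under 1.5-fold. The part of CTNNA1 in the LRRTM2 values was not tested.

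All 3 calsyntenins were called higher upon differentiation of PLKO, where 7.04% of all genes were called, and CLSTN2 was called higher in V71 too. CLSTN1 and CLSTN3 rose in V71 as well, passing on p but not on fold. CLSTN2 (probe set 8083034, chr3:139935185-140577397) read 4.30 and 4.66 in PLKO NDF, 4.24 and 4.29 in V71 NDF, 5.45 and 5.46 in PLKO DF and 5.36 and 5.08 in V71 DF. All DF arrays lay above all NDF arrays. It rose 1.96-fold in PLKO, by 0.97 (0.68 to 1.26, limma adjusted p = 0.000966), and 1.93-fold in V71, by 0.95 (0.66 to 1.25, limma adjusted p = 0.00111). The interaction was -0.02 (-0.43 to 0.40, limma adjusted p = 0.99), an interval that still holds a difference of up to 0.43 between the lines. In DF the difference between the lines was -0.24 (-0.53 to 0.06, limma adjusted p = 0.428).

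CLSTN1 (probe set 7912257, chr1:9728926-9824526) read 7.57 and 7.39 in PLKO NDF and 7.51 and 7.67 in V71 NDF. In DF it read 8.08 and 8.13 in PLKO and 8.08 and 8.01 in V71. The lines overlapped in NDF, and in DF the V71 arrays lay just below the PLKO arrays, the nearest pair at 8.080 and 8.082. CLSTN1 rose 1.54-fold in PLKO, by 0.62 (0.41 to 0.84, limma adjusted p = 0.00225). Without PLKO NDF replicate 3 the change was 0.53 (limma adjusted p = 0.033), short of 1.5-fold. In V71 it was 0.46 (0.24 to 0.67, limma adjusted p = 0.0121), passing on p but not on fold. The interaction was -0.17 (-0.47 to 0.14, limma adjusted p = 0.808). In DF the lines differed by -0.06 (-0.27 to 0.16, limma adjusted p = 0.846), an interval that leaves out a 1.5-fold difference.

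CLSTN3 (probe set 7953626, chr12:7129093-7158945) had an SD of at most 0.035 in each group of 2 arrays. It read 5.75 and 5.80 in PLKO NDF, 5.66 and 5.69 in V71 NDF, 6.39 and 6.41 in PLKO DF and 6.07 and 6.03 in V71 DF. The 4 groups did not overlap, and the V71 DF arrays lay between the NDF arrays and the PLKO DF arrays. CLSTN3 rose 1.54-fold in PLKO, by 0.63 (0.45 to 0.80, limma adjusted p = 0.000622). In V71 the change was 0.37 (0.20 to 0.55, limma adjusted p = 0.0123), 1.30-fold. In DF the difference between the lines was -0.35 (-0.53 to -0.17, limma adjusted p = 0.0355), 1.28-fold. The interaction was -0.25 (-0.50 to -0.0008, limma adjusted p = 0.537).

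**Figure D2:**
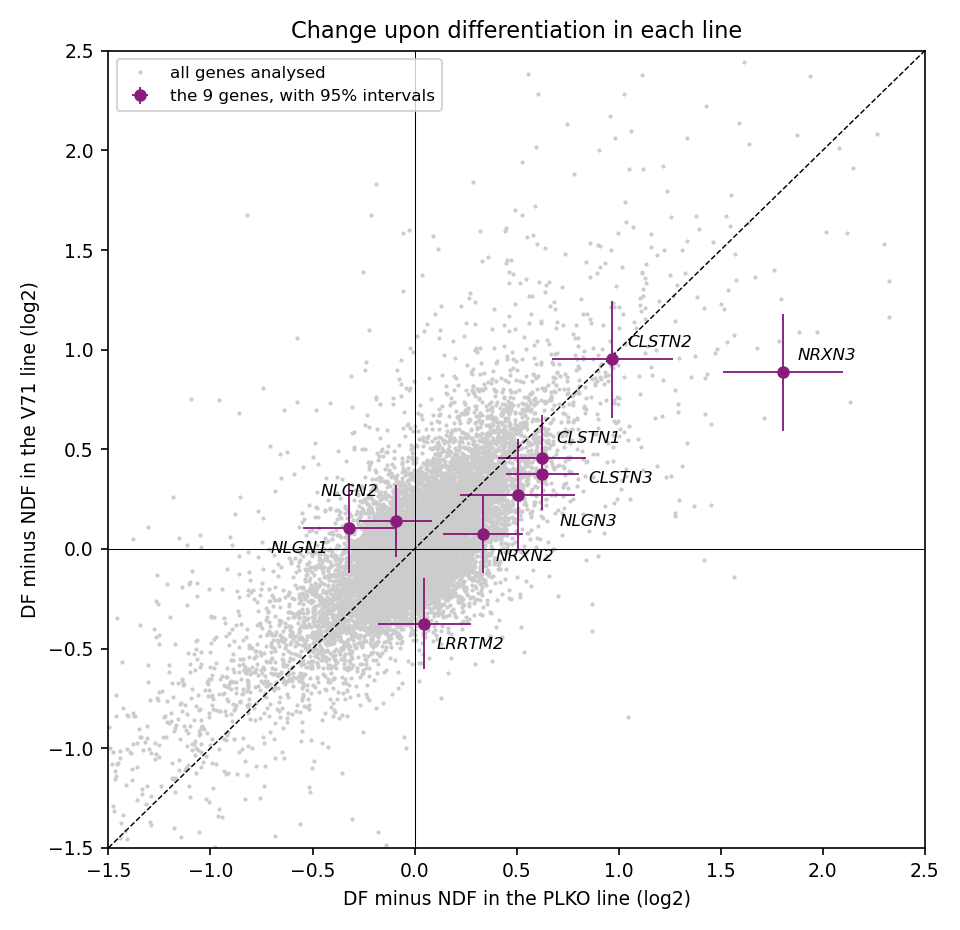
Change upon differentiation (DF minus NDF, log2) in PLKO on the horizontal and in V71 on the vertical axis. Purple points are the 9 genes with 95% intervals, grey points all genes analysed, and the dashed line marks equal change. CLSTN2 lies on the dashed line (0.97 and 0.95) and NRXN3 below it (1.81 and 0.89), and 211 genes lie outside the axes.

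Set side by side, 4 of the 9 genes were called upon differentiation of PLKO, all higher: NRXN3, CLSTN1, CLSTN2 and CLSTN3. Of all genes, 7.04% were called in either direction in that comparison and 2.88% were higher. In V71, 2 of the 9 were called, NRXN3 and CLSTN2, both higher, beside 7.53% of all genes in either direction and 3.98% higher. Without moderation of the variance neither V71 call held (adjusted p of 0.0672 for NRXN3 and 0.0594 for CLSTN2), and in PLKO CLSTN2 was lost (0.058) and the other 3 were kept. Without the fold threshold 6 of 9 passed in PLKO (15.8% of all genes) and 5 of 9 in V71 (16.5%), the V71 count including LRRTM2 in the lower direction. The median change of the 9 genes was 0.50 in PLKO and 0.27 in V71, beside 0.013 and -0.0036 over all genes. All 4 DF arrays lay above all 4 NDF arrays for 4 of the 9 genes, the same ones that were called in PLKO, and for 12.4% of all genes. CLSTN1, CLSTN3 and NRXN3 stand in a table of calcium-binding genes that the study chose on these arrays for induction in its control line alone, and its text names CLSTN2 among them. The direction of these 4 genes here therefore does not count as independent evidence. VIM (-1.74), FN1 (-1.31) and SNAI2 (-1.46) fell by the same test upon differentiation of PLKO. The VIM means of 3.21 in PLKO DF, 3.20 in V71 NDF and 2.91 in V71 DF lay near or below the lower quartile of the arrays. The size of its fall in PLKO is therefore uncertain, and little further fall could be seen in V71. Upon differentiation of V71 limma called 0 of the 12 S-type markers (5 at an unadjusted p under 0.05). There FN1 (-0.58), SNAI2 (-0.35) and COL1A2 (-0.36) fell too, passing on p but not on fold (limma adjusted p = 0.0129, 0.0384 and 0.0226). The part of the S-type markers in the changes of either line was not tested.

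Between the lines, 0 of the 9 genes were called in NDF by limma with or without moderation, and with it 2.15% of all genes were. On limma's adjusted p alone 1 of 9 passed, NLGN1, beside 3.41%, and 3 of 9 had an unadjusted p under 0.05, beside 15.0% of all genes. In DF, 2 of 9 were called, NRXN3 and LRRTM2, both lower in V71, where 3.06% of all genes were called and 1.26% were lower. Without moderation of the variance neither was called, with adjusted p of 0.113 for NRXN3 and 0.0954 for LRRTM2. Without the fold threshold 4 of 9 passed in DF, NLGN3 and CLSTN3 joining these, beside 6.51% of all genes, and all 4 were lower in V71. Both V71 arrays lay below both PLKO arrays in DF for 7 of the 9 genes, NLGN1 and NLGN2 being the exceptions, and for 21.1% of all genes. They lay above for 1 of the 9, NLGN2, and for 24.6% of all genes. In NDF the same held for 7 of the 9, NRXN2 and CLSTN1 being the exceptions, and for 21.5% of all genes. They lay above for 0 of the 9 and for 26.0% of all genes. The median difference was -0.11 in NDF and -0.26 in DF, beside 0.01 over all genes in both. In DF limma called 0 of the 12 S-type markers between the lines (2 at an unadjusted p under 0.05), and the summed levels of S-type markers overlapped between the lines. SNAI2 was lower in V71 in DF, at -0.49 (limma adjusted p = 0.0164), under 1.5-fold. The part of these markers in the DF differences was not tested. The interaction was called for 0 of the 9 genes by limma with or without moderation, and with it for 1.39% of all genes, and 4 of 9 had an unadjusted p under 0.05, beside 10.2%. It was below 0 for 7 of the 9 genes, NLGN1 and NLGN2 being above 0, and for 51.0% of all genes.

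**Figure D3:**
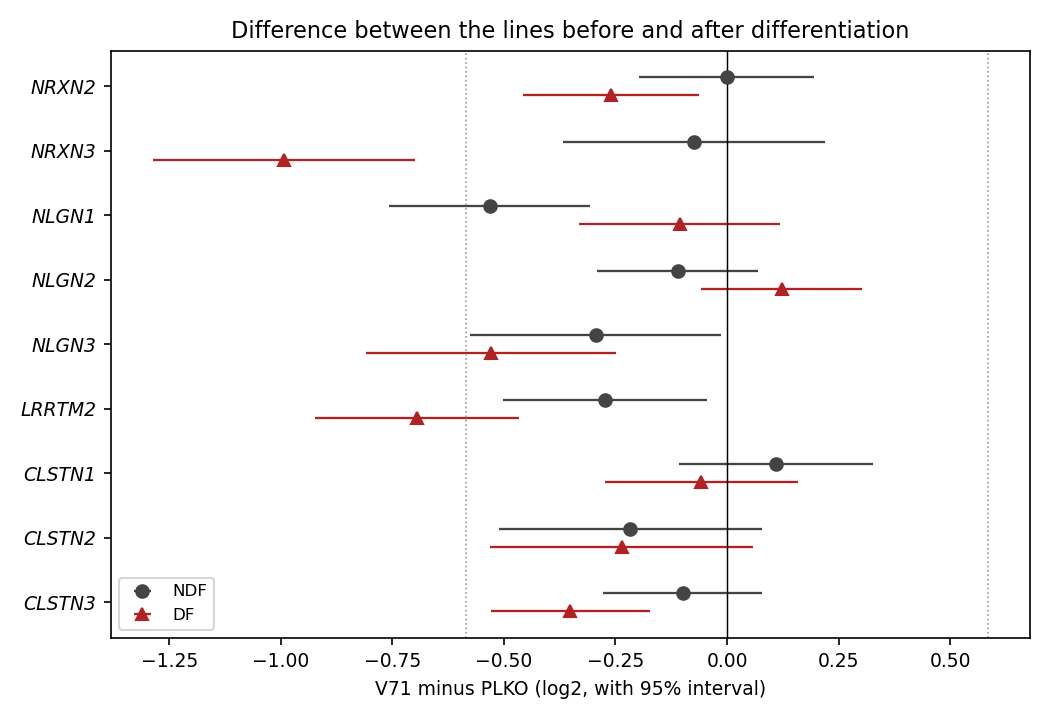
Difference between the lines (V71 minus PLKO, log2) for each of the 9 genes with its 95% interval. Grey circles are NDF, red triangles DF, and dotted lines mark 1.5-fold. The NRXN3 triangle (-0.99) and the LRRTM2 triangle (-0.70) lie beyond the dotted line, and the NDF circle farthest from 0 is that of NLGN1 (-0.53).

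Genes around these adhesion proteins were counted from 4 lists. Of all genes, 7.04% were called upon differentiation of PLKO and 7.53% upon differentiation of V71. Between the lines 2.15% were called in NDF and 3.06% in DF. The 14 other neurexin ligands analysed include further LRRTM proteins, cerebellins, neurexophilins and latrophilins. Upon differentiation limma called none of them higher and 1 lower in each line (6 in each line at an unadjusted p under 0.05). That gene was ADGRL3, a latrophilin receptor, which fell by 2.33 in PLKO (limma adjusted p = 3.95e-06) and fell by 2.24 in V71 (limma adjusted p = 6.88e-06). Between the lines limma called 0 of the neurexin ligands and 0 of the 10 cleavage and splicing factors in NDF and in DF. At an unadjusted p under 0.05 these were 2 and 4 ligands and 1 and 4 factors. Upon differentiation the ligand CA11 passed on p but not on fold in the higher direction, at 0.53 in PLKO and 0.38 in V71. ADGRL2 did so in V71, at 0.34. CBLN1 and CBLN2 passed on p but not on fold in the lower direction in PLKO, at -0.40 and -0.33. The median change of the ligands was -0.03 in PLKO and -0.08 in V71.

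Of the 12 cytoplasmic partners, such as CASK, the Mint adaptors and kinesin light chains, 0 were called upon differentiation of either line by limma (6 in PLKO and 5 in V71 at an unadjusted p under 0.05), with medians of 0.08 in PLKO and 0.16 in V71. In NDF, 1 of them was called between the lines: APBA1 (Mint-1), at -0.84 (limma adjusted p = 0.00257). Among the cleavage and splicing factors 1 was called upon differentiation of each line. KHDRBS3 (SLM2), a regulator of alternative splicing of neurexins, fell by 0.69 in PLKO (limma adjusted p = 0.000735) and fell by 0.63 in V71 (limma adjusted p = 0.0014). The secretases of the list, which cut membrane proteins of this kind, were not called in any of the 5 comparisons. PSEN2 passed on p but not on fold upon differentiation, at 0.47 in PLKO and 0.58 in V71 (limma adjusted p = 0.00787 and 0.00246). Between the lines it did so too, at -0.49 in NDF and -0.38 in DF (limma adjusted p = 0.0231 and 0.0464). ADAM10 passed on p between the lines in DF and upon differentiation of PLKO, and NCSTN upon differentiation of each line, all under 1.5-fold.

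Of 31 other synaptic organizers, 3 were called higher and 3 lower upon differentiation of PLKO, and 2 higher and 3 lower upon differentiation of V71. At an unadjusted limma p under 0.05 there were 13 in each line. CADM1 (SynCAM1), an immunoglobulin-domain adhesion molecule, rose by 1.05 in PLKO (limma adjusted p = 4.59e-05) and by 1.90 in V71 (limma adjusted p = 1.55e-06). CADM3 rose in both lines as well, by 0.93 and 1.43 (limma adjusted p = 0.000189 and 1.65e-05). NTNG2 (netrin-G2) rose by 1.57 in PLKO (limma adjusted p = 3.36e-06), and in V71 its difference was -0.14 (limma adjusted p = 0.38). SLITRK6 fell by 1.90 in PLKO and fell by 0.92 in V71 (limma adjusted p = 6.14e-06 and 0.000624). PTPRD, a receptor tyrosine phosphatase of presynaptic terminals, fell by 0.84 in V71 (limma adjusted p = 0.000547), and in PLKO its difference was -0.40 (limma adjusted p = 0.0319), under 1.5-fold. Between the lines, NTNG1 (netrin-G1) was higher in V71 by 1.64 in NDF and by 1.88 in DF (limma adjusted p = 1.98e-05 and 8.45e-06). CADM1 was lower in V71 in NDF, at -1.07 (limma adjusted p = 0.000166), and SLITRK6 was higher in V71 in DF, at 1.26 (limma adjusted p = 0.000294). NTNG2 was lower in V71 in DF, at -2.12 (limma adjusted p = 4.39e-06), and its interaction of -1.71 passed (limma adjusted p = 0.000206). CADM1 and SLITRK6 were the other organizers with a called interaction, at 0.86 and 0.98 (limma adjusted p = 0.013 and 0.0253). Median changes of the list were 0.03 in PLKO and -0.03 in V71.

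**Figure D4:**
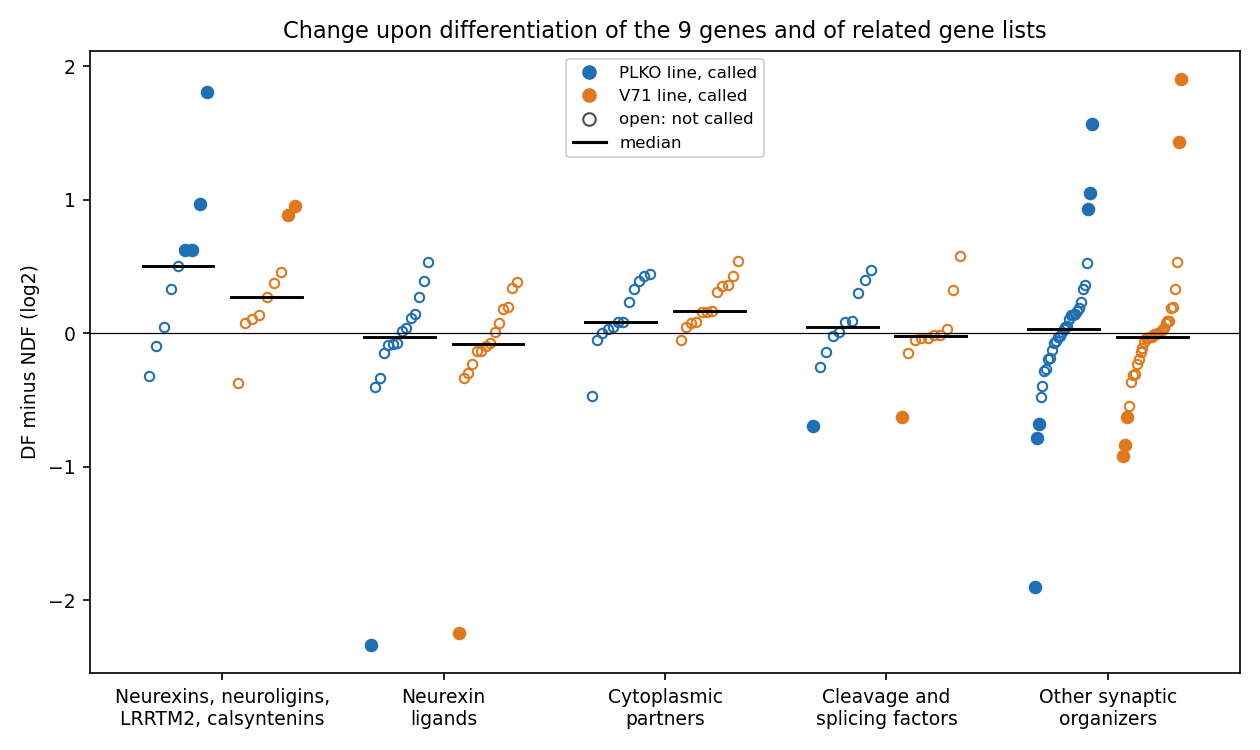
Change upon differentiation (DF minus NDF, log2) of the 9 genes and of the genes in 4 related lists, blue for PLKO and orange for V71. Filled points were called, open points were not, and bars are medians. The medians of the 9 genes are 0.50 and 0.27, and those of the other lists lie between -0.08 and 0.16.

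The genes whose pattern over the 8 arrays was most like that of a called gene were found by Pearson's r. They are a description, since the points share 4 groups and differentiation moves many genes. For NRXN3 they were PRAF2 (0.992) and MAP2 (0.991), the latter a microtubule-associated protein of dendrites. For LRRTM2 they were RHBDD1 (0.978) and MCFD2 (0.969). For CLSTN1 they were RHBDD2 (0.993) and YWHAB (0.991), for CLSTN2 MOK (0.986) and HOXD9 (0.981), and for CLSTN3 PCDH9 (0.996), a protocadherin, and NEK10 (0.993).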

How the data were processed

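Gene expression was measured in SHSY5Y cells with Affymetrix Human Gene 1.0 ST arrays, 8 in all and 2 for each of 4 groups, named by the line (PLKO or V71) and condition (NDF or DF) in the sample titles. Normalization and summarization by RMA in Partek 6.5 were done by the authors, whose deposited log2 values were taken without further scaling. Of 28869 rows, 19310 carry 1 symbol, 1752 several and 7807 none. Where a gene had several rows, as 685 had, the row with the highest mean was taken, which gave 18377 genes. Positions and promoter windows are from RefSeq tables of GRCh38.p14. The build of the array annotation is not given in the sources used here. Antisense RNAs lie in the spans of NRXN2, NRXN3, NLGN1 and CLSTN2, RBP5 overlaps the start of CLSTN3 and PIK3CD the end of CLSTN1, and probe positions were not checked. Spearman correlations between arrays were at least 0.9947 within groups and at most 0.9931 between them.

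In limma 3.58.1 (R 4.3.3), group means were fitted to all rows with moderated variances (4 residual and 5.43 prior degrees of freedom). The lines were compared within each condition (V71 minus PLKO), the conditions within each line (DF minus NDF), and the interaction of both was tested. P values are two-sided and were adjusted (Benjamini-Hochberg) across every row. The scripts were tested on simulated data. The number of arrays limits the precision of each value. The 9 genes, the partner lists and the marker lists were chosen with earlier results of these data known. The text names all 9 genes, the called genes of each partner list (at most 4 per comparison, by size of change), and the 2 genes with the highest r to each called gene. The marker genes, CTNNA1, PSEN2, ADAM10, NCSTN, CA11, ADGRL2, CBLN1 and CBLN2 were named outside this rule after their values were seen. Alternatives were no moderation, other priors, scalings, filters, adjustments and fold thresholds, array weights, fits on the compared arrays, a replicate block and leaving out each array.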

Additional observations from a re-analysis of the deposited data

Results flagged for a closer look

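NLGN2 was singled out because its arrays moved in opposite directions in the 2 lines. Upon differentiation both PLKO arrays were lower and both V71 arrays higher, which left an interaction of 0.23 (95% interval -0.02 to 0.49, limma adjusted p = 0.602). The test of the difference itself did not pass. The lines also changed order: V71 lay below PLKO in NDF and above it in DF.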

How the results depend on the processing

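The rise of NRXN3 upon differentiation of PLKO was called under all 20 alternatives run. Without moderation of the variance, which is how the methods tested, 0 of the 9 genes were called between the lines in DF and 0 upon differentiation of V71 (2 in each with moderation); the adjusted p of NRXN3 and LRRTM2 in DF was then 0.113 and 0.0954, that of NRXN3 and CLSTN2 in V71 0.0672 and 0.0594, and that of CLSTN2 in PLKO 0.058. The interaction was called for 1 gene, NRXN3, with a trended and robust prior (adjusted p = 0.0366), with dim rows left out (0.0417), with adjustment over rows of 1 symbol (0.0439) and with array weights (0.0434). Without a fold threshold the counts were 1 in NDF, 4 in DF and 5 in V71. At a fold of at least 2 they were 0 in DF, 1 in PLKO (NRXN3) and 0 in V71. Leaving out each array in turn gave 0 to 1 called genes in NDF, 1 to 2 in DF, 3 to 4 in PLKO, 2 in V71 and 0 to 1 for the interaction. Values near 0 changed sign: NRXN2 in NDF (-0.0007) was 0.013 after quantile normalization and 0.0072 after median centring, and -0.039 to 0.037 when each array was left out; the CLSTN2 interaction was 0.015 after cyclic loess and -0.20 to 0.16 when each array was left out; LRRTM2 in PLKO ran from -0.0765 to 0.173 when each array was left out.

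Over all genes, calls in NDF, DF, PLKO, V71 and the interaction numbered 396, 563, 1293, 1383 and 256. They numbered 99, 166, 920, 957 and 3 without moderation, 627, 1197, 2895, 3034 and 256 without a fold threshold, and 133, 152, 525, 486 and 133 at a fold of at least 2. The interaction ranged from 120 to 230 genes when each array was left out. Arrays share replicate numbers without a stated shared culture, and with 2 pairs their deviations correlated at -0.176 in NDF and 0.188 in DF. With the replicate number as a block, 0, 2, 4, 2 and 0 of the 9 genes were called, as without it. Exchanging the numbers in NDF, an alternative chosen after seeing the data, gave 0 of the 9 and 394 genes. Averaging several rows of a gene was not run, since each of the 9 has 1 row. The filter on dim rows removed NLGN1, and the fit on compared arrays gives no interaction.

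With 2 arrays per group, small differences could not be told from the spread between arrays. Values of NLGN1, of NRXN3 in NDF, of ADGRL3 in DF and of VIM outside PLKO NDF lie near or below the lower quartile of the arrays.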
